A study of Mus musculus with 6 samples.

Results

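The miR-148 and miR-152 family was followed here in small RNA libraries of mouse intestine, through 5 mature miRNAs out of the 604 of the deposited table. The members were chosen by name: mmu-miR-148a-3p, mmu-miR-148a-5p, mmu-miR-148b-3p, mmu-miR-148b-5p and mmu-miR-152-3p, where mmu stands for mouse and is left out below. All 5 were found in the table, and all 5 reached the minimum for testing, a log2 value of 3.32 in at least 3 libraries, which 386 of the 604 miRNAs reached. The other arm of the third hairpin, miR-152-5p, is no member and is given beside its partner.

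The study asked which miRNAs differ in the intestine of mouse pups with necrotizing enterocolitis (NEC), an injury of the newborn bowel. The NEC group had 3 libraries from wild-type (WT) C57BL/6J pups that, from day 5 of age and for 96 h, were gavaged every 4 h with 40 µl of 33% Esbilac, a milk replacer, and PBS, and were put every 12 h under 99.9% nitrogen for 100 s and then at 4 °C for 10 min. The Control group had 3 libraries from WT C57BL/6J pups of the same age that stayed with the dam and had neither hypoxia nor cold; their treatment is labelled PBS. Whether 1 pup or several stand behind a library is not given in the sources used, so p-values measure only the spread between libraries, and part of that spread may be technical. The values are normalized and on a log2 scale. Without counts, sequencing depth is unknown. The library codes of the labels form a pair of series, each with both conditions: code series 1 holds NEC replicates 2 and 3 and Control replicates 1 and 2, and code series 2 holds NEC replicate 1 and Control replicate 3. The libraries of code series 2 stand apart from the others, and 222 of the 386 miRNAs tested (57.5%) had an adjusted p under 0.05 for the series in a limma fit that held the condition too. The differences of the members are therefore also given within the series.

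A miRNA is cut as a short duplex from a hairpin RNA, and the arm that stays in the Argonaute protein pairs with mRNAs mainly through its seed, bases 2 to 8. The 3p arms are the guide arms that are usually kept in this family, and the 5p arms are usually the passenger arms. The family is known for repressing DNA methyltransferase 1 and regulators of lipid handling in liver, for restraining antigen presentation by dendritic cells, and, for miR-148a, for its abundance in milk and in digestive organs.

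The mature sequences are shown because the seed is what the members share, with the seed in capitals.
miR-148a-3p: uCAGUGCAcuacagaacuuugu
miR-148b-3p: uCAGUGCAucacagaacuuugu
miR-152-3p: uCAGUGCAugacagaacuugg
miR-148a-5p: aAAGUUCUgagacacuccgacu
miR-148b-5p: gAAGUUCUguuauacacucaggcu
miR-152-5p: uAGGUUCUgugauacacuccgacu
The sequences are those of RefSeq on GRCm38.p6, where all 6 names matched. Among the mature miRNAs of RefSeq only the 3p arms of these hairpins carry the seed CAGUGCA, and all of them are in the deposited data. The 5p arms of miR-148a and miR-148b share another seed, AAGUUCU, which no further mature miRNA of RefSeq carries, while miR-152-5p has the seed AGGUUCU on its own. Counted from 1 at the 5′ end, miR-148b-3p differs from miR-148a-3p at 2 of 22 positions (C9U and U10C), just after the seed. Between miR-148a-3p and miR-152-3p, 3 of the 21 positions compared differ (C9U, U10G and U20G), and between miR-148b-3p and miR-152-3p 2 of 21 differ (C10G and U20G).

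The genes of the family lie on separate chromosomes. On GRCm38, the hairpin of miR-148a lies on the minus strand of chromosome 6 from 51269812 to 51269910, outside any annotated host gene, and the nearest protein-coding gene, Nfe2l3, is 162760 bp away. The hairpin of miR-148b lies on the plus strand of chromosome 15 from 103285125 to 103285221, in intron 1 of Copz1. The hairpin of miR-152 lies on the plus strand of chromosome 11 from 96850393 to 96850465, in intron 1 of Copz2. Copz1 and Copz2 encode alternative zeta subunits of the COPI vesicle coat, and both are on the same strand as the miRNA they hold.

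The guide arm of miR-148a was the dominant member of the family in NEC and in Control. Its log2 values were 18.74, 17.56 and 17.36 in NEC replicates 1, 2 and 3, against 17.20, 16.96 and 18.48 in Control replicates 1, 2 and 3. It ranked 2 of 604 in each of the 6 libraries. The highest values of both groups belonged to the libraries of code series 2, and the groups overlapped.

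**Figure D1:**
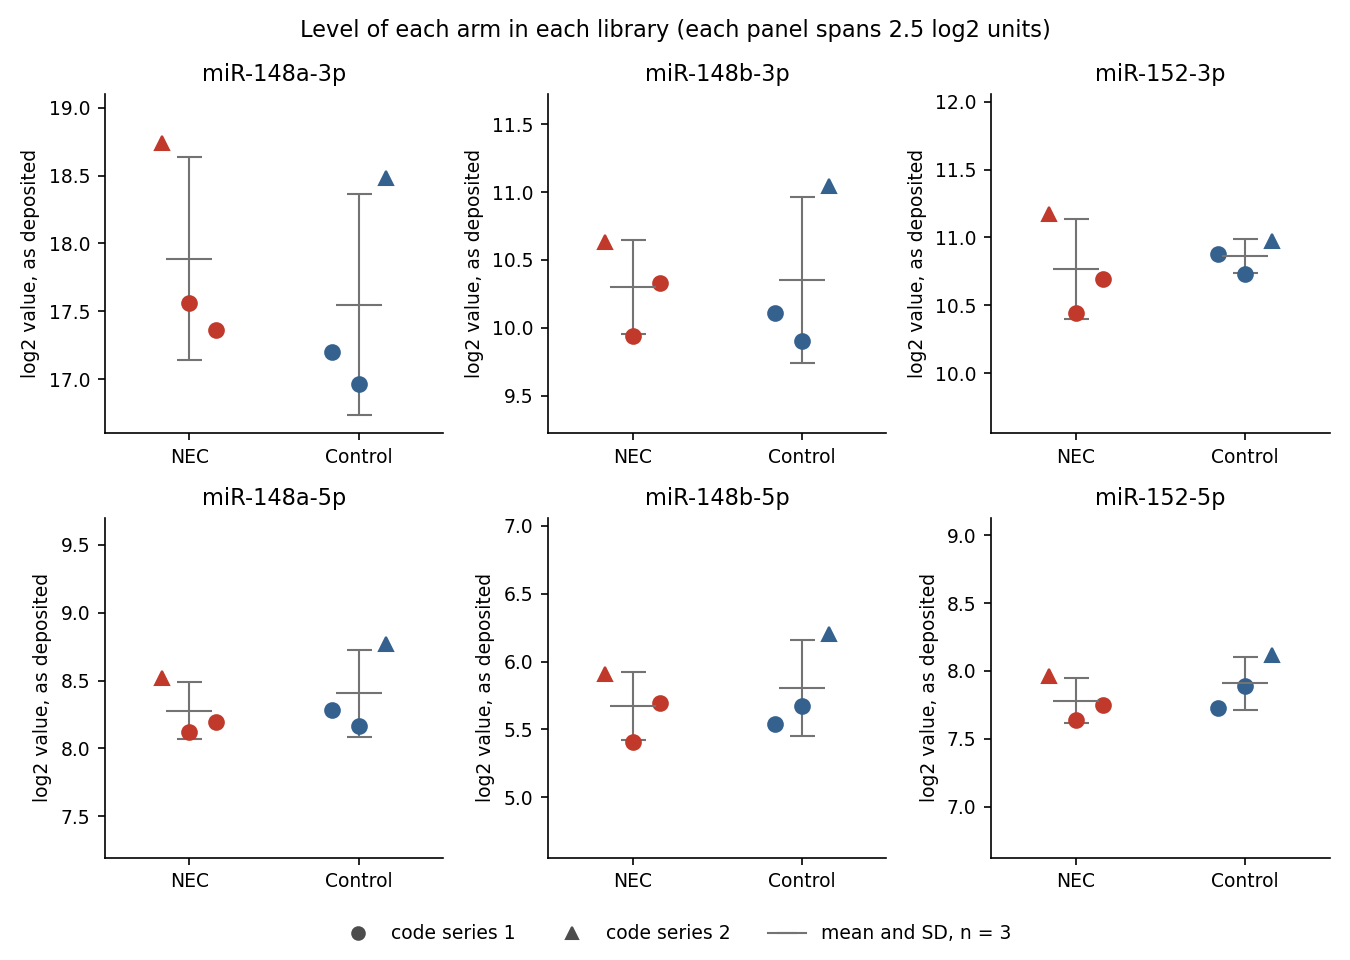
Log2 value of each arm (y axis, as deposited) in the NEC and Control libraries, one point per library, with circles for code series 1 and triangles for code series 2; bars give the mean and SD of 3 libraries. Each panel spans the same number of log2 units, and the NEC and Control points overlap in all of them, with miR-148a-3p at 18.74 and 18.48 in the libraries of code series 2.

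The values were back-transformed as 2 to the power of the log2 value. The sources used do not give the transformation behind the log2 values, and if it was not a plain logarithm, the shares, pool percentages and folds below are not shares or ratios of reads. As a share of all back-transformed values, miR-148a-3p held 20.5%, 12.4% and 9.70% in NEC replicates 1, 2 and 3 and 7.65%, 8.53% and 17.3% in Control replicates 1, 2 and 3. The mean was 14.2% ± 5.64 in NEC and 11.1% ± 5.31 in Control (SD, n = 3 each), a difference of 3.08 percentage points (exact two-sided permutation test, p = 0.5). A p below 0.1 cannot be reached with 3 libraries in each group. Within series 1 it was 2.98 points, and within series 2, with 1 library a group, 3.28 points. Without NEC replicate 1, which leaves Control replicate 3 as the only library of series 2, it was -0.075 points. The share of the library was thus larger in NEC within each series, and in series 1 both NEC shares lay above both Control shares. With 2 libraries a group there, the smallest p of an exact permutation test is 0.33. The differences were below the SD over the 3 libraries of a group. That SD also holds the difference between the series, which was 9.32 points.

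**Figure D2:**
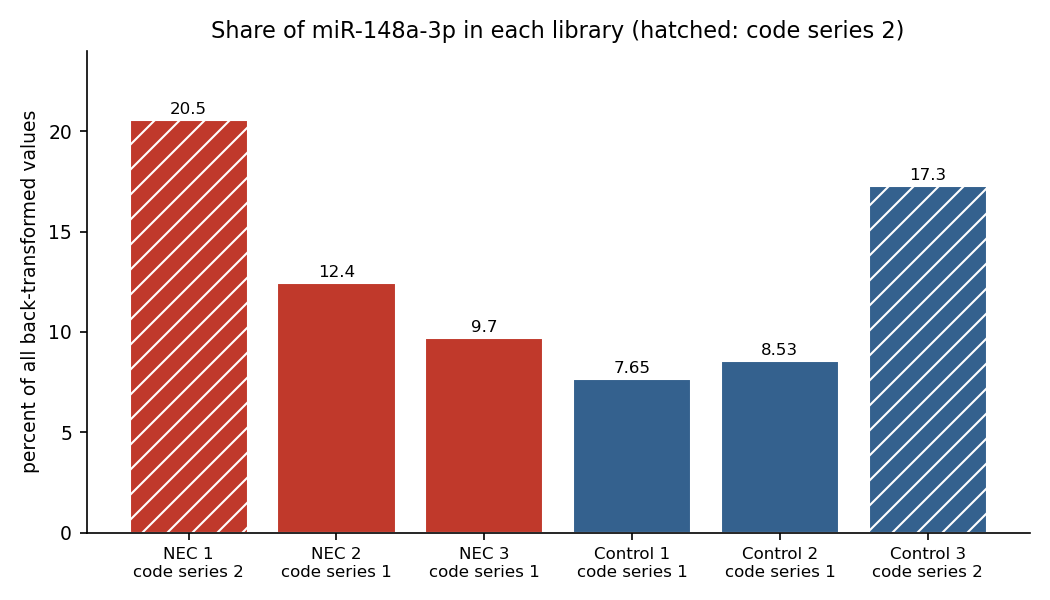
Share of miR-148a-3p in all back-transformed values (y axis, percent) in each library, with NEC in red, Control in blue and code series 2 hatched. The hatched bars reach 20.5% and 17.3%, and the other bars 7.65% to 12.4%.

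The other 3p arms added little to the pool of this seed. Of the summed back-transformed values of the 3p arms, miR-148a-3p held 98.3% to 99.1% in NEC and 98.0% to 98.9% in Control. The share of miR-152-3p in this pool was 0.521% to 0.965% in NEC and 0.544% to 1.30% in Control. For miR-148b-3p it was 0.359% to 0.754% in NEC and 0.571% to 0.735% in Control. The log2 level of the pool averaged 17.91 ± 0.74 in NEC and 17.57 ± 0.81 in Control (SD, n = 3 each). Its difference of 0.33 followed that of miR-148a-3p, and was 0.37 within series 1 and 0.26 within series 2. Without NEC replicate 1, which leaves Control replicate 3 as the only library of series 2, it was -0.092.

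For miR-152-3p, the guide arm from the Copz2 intron, the log2 values were 11.17, 10.45 and 10.69 in NEC replicates 1, 2 and 3, against 10.88, 10.73 and 10.98 in Control replicates 1, 2 and 3. The NEC libraries held both the highest and the lowest value, so the groups overlapped. Its rank was 54 to 68 of 604 over the libraries.

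For miR-148b-3p, from the Copz1 intron, they were 10.63, 9.94 and 10.33 in NEC, against 10.11, 9.91 and 11.05 in Control, in the order of the replicate numbers. Control replicate 3 was the highest and Control replicate 2 the lowest. The back-transformed value of miR-148b-3p was 0.362% to 0.767% of that of miR-148a-3p in NEC and 0.577% to 0.750% of it in Control. Since the sequences differ at 2 positions and the sources do not state how reads with mismatches were assigned, the level of miR-148b-3p is uncertain by whatever small part of the miR-148a-3p reads was counted there.

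The 5p arms lay below their partners in all 6 libraries. For miR-148a-5p the log2 values were 8.52, 8.12 and 8.19 in NEC, against 8.28, 8.16 and 8.77 in Control. For miR-148b-5p they were 5.91, 5.41 and 5.69 in NEC, against 5.54, 5.67 and 6.20 in Control. For miR-152-5p they were 7.96, 7.64 and 7.75 in NEC, against 7.73, 7.89 and 8.12 in Control. In all of these arms the highest value was that of Control replicate 3 and the lowest that of NEC replicate 2, and the groups overlapped.

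Ordered by the mean log2 value over the 6 libraries, the arms ran from miR-148a-3p (17.72) through miR-152-3p (10.82), miR-148b-3p (10.33), miR-148a-5p (8.34) and miR-152-5p (7.85) to miR-148b-5p (5.74). All are 21 to 24 nt long. Ligation during library making can favour some small RNAs over others, and its part in this order was not tested. The neighbours miR-152-3p and miR-148b-3p were the closest guide arms, with a log2 difference of 0.49 on average, miR-152-3p being above in 5 of the 6 libraries and below by 0.068 in Control replicate 3. Their means lay 0.47 ± 0.096 apart in NEC and 0.51 ± 0.50 in Control (SD, n = 3 each), so that in Control the distance was about as large as its SD. Over miR-152-3p, the back-transformed value of miR-148a-3p was 102-fold to 190-fold higher in NEC and 75.3-fold to 182-fold higher in Control.

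Between NEC and Control no member passed the test. Of the 386 miRNAs tested 0 (0%) had an adjusted p under 0.05 in limma and 11 (2.85%) an unadjusted p under 0.05, and of the 5 members 0 had either. One member, miR-148a-3p, had a positive log2 difference, and the other 4 had negative ones, against 51.8% positive and 48.2% negative over all miRNAs tested. Without Control replicate 3 the count was 4 positive and 1 negative, without NEC replicate 2 it was 3 and 2, and without NEC replicate 1 all 5 were negative. The median log2 difference was -0.092 over the members and 0.0099 over all 386. Leaving out the same libraries moved the median of the members to 0.066 (Control replicate 3), 0.070 (NEC replicate 2) and -0.25 (NEC replicate 1). With NEC replicate 1 or Control replicate 3 left out, code series 2 holds 1 condition only. The changes there cannot be told from the difference between the series. The NEC and Control values did not overlap in 0 of the 5 members, against 9.84% of all miRNAs tested.

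The log2 value of miR-148a-3p averaged 17.89 ± 0.75 in NEC and 17.55 ± 0.82 in Control (SD, n = 3 each), and the log2 difference was 0.34 (standard error 0.52, 95% interval -0.87 to 1.55, adjusted p = 0.998 from limma). It was 0.38 in code series 1, where both NEC values lay above both Control values, and 0.26 in code series 2. With the code series in the limma fit the standard error was 0.15, the 95% interval -0.0016 to 0.68, the unadjusted p 0.0508 and the adjusted p 0.267. Without NEC replicate 1, Control replicate 3 was the only library of code series 2, and the difference without a covariate was -0.088.

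The log2 difference of miR-152-3p was -0.092 (standard error 0.27, 95% interval -0.72 to 0.54, adjusted p = 0.998 from limma). The within-series values went in opposite directions, with -0.23 within series 1 and 0.19 within series 2. For miR-148b-3p the log2 difference was -0.049 (standard error 0.37, 95% interval -0.91 to 0.81, adjusted p = 0.998), and it too had unlike signs, with 0.13 within series 1 and -0.41 within series 2. A term for the interaction of condition and code series gave an adjusted p of 0.953 for each of these arms in limma and passed for 0 of the 386 miRNAs (15, or 3.89%, had an unadjusted p under 0.05, and 0 of the 5 members), so a difference between the series in the effect of NEC was not detectable with 1 library a group in code series 2.

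The passenger arms had log2 differences of -0.13 in miR-148a-5p (standard error 0.27) and -0.13 in miR-148b-5p (standard error 0.28), with an adjusted p of 0.998 from limma for both, and both were negative within each series. For miR-148a-5p the difference was -0.065 in series 1 and -0.25 in series 2, and for miR-148b-5p it was -0.054 and -0.29. Their 95% intervals ran from -0.76 to 0.50 and from -0.79 to 0.52. The non-member miR-152-5p had -0.13 (standard error 0.24, adjusted p = 0.998), with -0.12 in series 1 and -0.15 in series 2. Without Control replicate 3, NEC replicate 1 was the only library of series 2. The difference was then 0.055 for miR-148a-5p and 0.066 for miR-148b-5p.

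**Figure D3:**
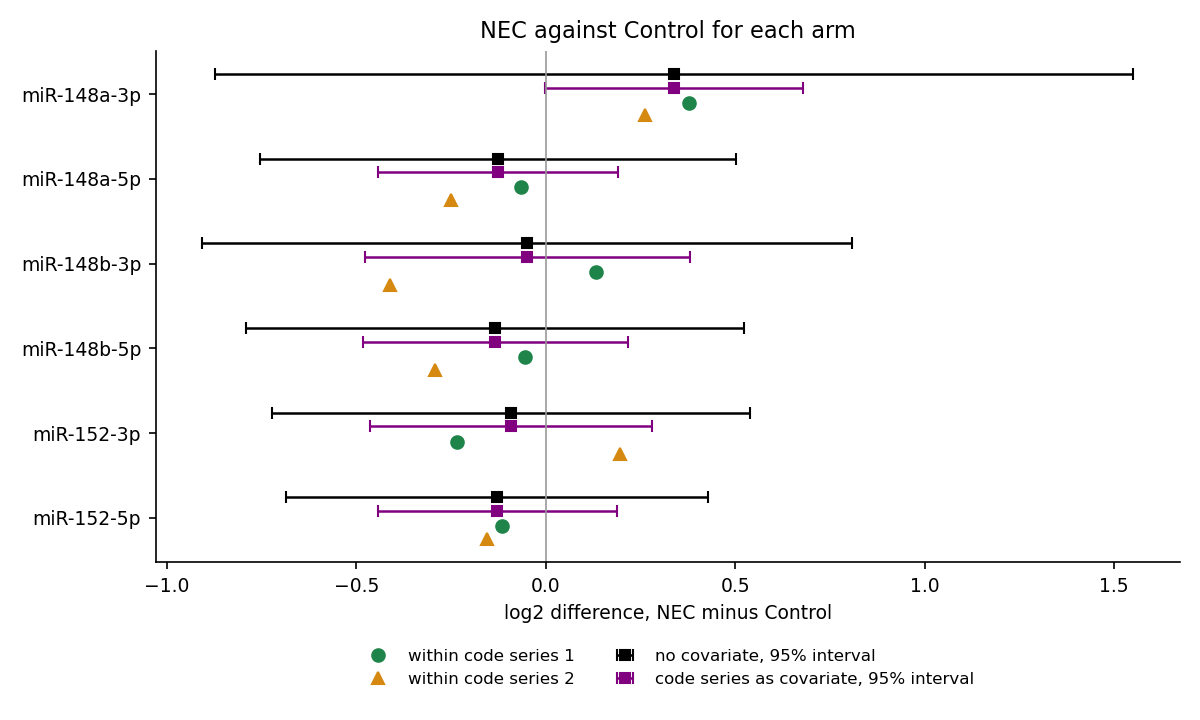
Log2 difference, NEC minus Control (x axis), for the 5 members and miR-152-5p (rows); squares with 95% intervals come from limma without a covariate (black) and with the code series (purple), and circles and triangles are the differences within series 1 and series 2. All intervals include 0, and that of miR-148a-3p with the code series runs from -0.0016 to 0.68.

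Across members, the count with one direction in both code series was 1 positive, miR-148a-3p, and 2 negative, miR-148a-5p and miR-148b-5p, against 30.1% positive and 33.4% negative in both series over all miRNAs tested. Within code series 1 the NEC and Control values of 2 members, miR-148a-3p and miR-152-3p, did not overlap, against 49.2% of all miRNAs tested. With the code series in the limma fit, 0 of the 5 members had an unadjusted p under 0.05, against 18.1% of the 386, and 0 of the 386 (0%) an adjusted p under 0.05.

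The family differed between the code series more than between NEC and Control. Of the 5 members 4 were higher in code series 2 (limma with the condition in the fit, adjusted p under 0.05), against 25.4% of all miRNAs tested that were higher and 32.1% that were lower. The log2 difference, code series 2 minus 1, was 1.34 for miR-148a-3p (standard error 0.15, adjusted p = 0.000597), 0.77 for miR-148b-3p (standard error 0.20, adjusted p = 0.0130), 0.48 for miR-148b-5p (adjusted p = 0.0348) and 0.45 for miR-148a-5p (adjusted p = 0.0297). For miR-152-3p it was 0.39 (standard error 0.17, adjusted p = 0.0846), which did not pass. The labels name no factor that separates the series, so animals, RNA and library making cannot be told apart as its source.

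**Figure D4:**
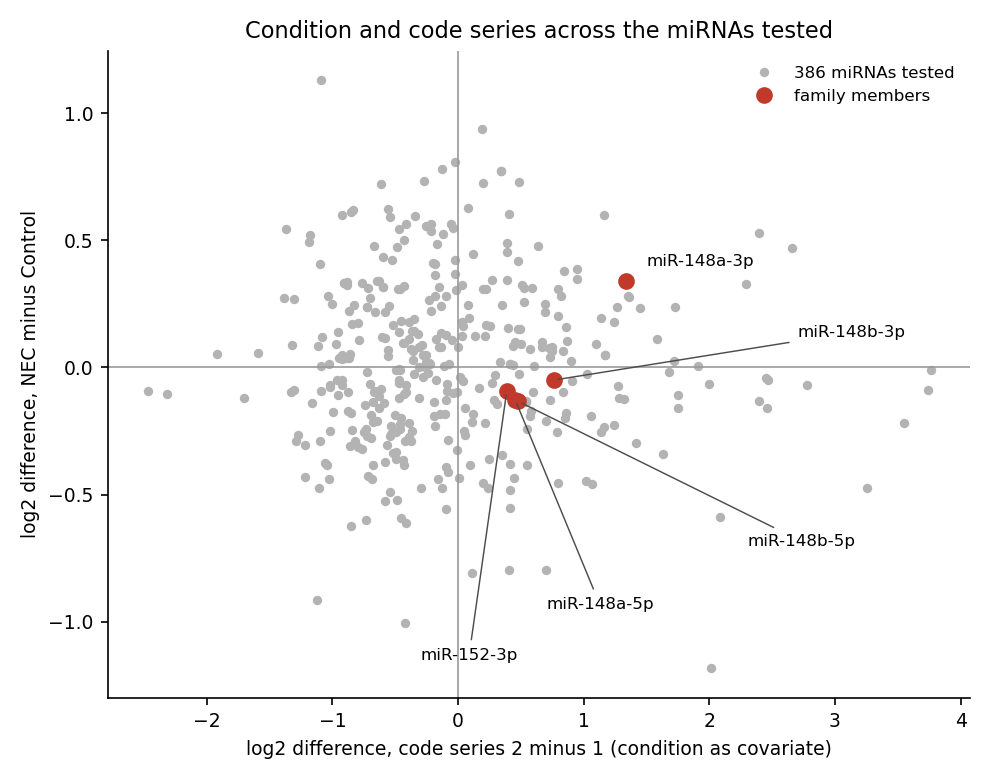
Log2 difference between NEC and Control (y axis) against that between code series 2 and code series 1 (x axis) for the 386 miRNAs tested (grey) and the 5 family members (red). The members lie to the right of 0, with miR-148a-3p at 1.34 on the x axis and 0.34 on the y axis.

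Some marker lists moved with the series as well. Summed as back-transformed values and put on the log2 scale again, the 8 listed miRNAs of intestinal epithelium, among them miR-192-5p, miR-194-5p and miR-215-5p, gave 19.01 to 19.18 in code series 2 and 18.27 to 18.72 in code series 1. Of the 8, 5 were higher and 1 lower in code series 2 (limma, adjusted p under 0.05). The most abundant of them weigh most in the sum. Their series differences were 0.90 (miR-215-5p), 0.66 (miR-192-5p), 0.57 (miR-194-5p) and 0.029 (miR-200b-3p). Between the conditions the same sum was 18.27 to 19.01 in NEC and 18.35 to 19.18 in Control. The 5 miRNAs of smooth muscle and mesenchyme summed to 18.65 to 18.93 in NEC and 18.76 to 19.43 in Control. Their sum, mostly miR-143-3p (mean 18.88), did not separate by series (18.93 to 18.97 in code series 2 and 18.65 to 19.43 in code series 1). Of the 5 taken singly, 0 were higher and 2 lower in code series 2 (limma, adjusted p under 0.05). The summed miRNAs of epithelium and of smooth muscle and mesenchyme were thus high in the labelled tissue. The only pancreas miRNA of 3 listed with a value, miR-217-5p, was near the bottom of the table with a mean of 0.98. The striated muscle miRNA miR-1a-3p and the liver miRNA miR-122-5p were not so low, with means of 10.87 and 6.42. Of the 5 leukocyte miRNAs listed 3 had values, summing to 8.41 to 9.44 in NEC and 8.65 to 9.81 in Control. Their sum was lower in code series 2 (8.41 to 8.65) than in code series 1 (9.37 to 9.81). Taken singly, 0 of the 3 were higher and 1 was lower in code series 2 (limma, adjusted p under 0.05). The 3 red cell miRNAs summed to 9.84 to 10.42 in NEC and 9.40 to 10.09 in Control, and the series overlapped (9.71 to 10.42 in code series 2 and 9.40 to 10.09 in code series 1). This sum was mostly miR-451a (mean 9.74, series difference 0.27). Of the 2 red cell miRNAs tested, 0 were higher and 1 lower in code series 2 (limma, adjusted p under 0.05). The lower was miR-486a-5p, with a series difference of -0.88. The liver miRNA miR-122-5p was at 6.30 to 7.58 in NEC and 5.73 to 6.37 in Control, with the series overlapping (5.73 to 7.58 in code series 2 and 6.02 to 6.54 in code series 1). The 3 striated muscle miRNAs summed to 10.45 to 11.96 in NEC and 10.59 to 11.51 in Control. Their sum was higher in code series 2 (11.51 to 11.96) than in code series 1 (10.45 to 11.07). It followed the most abundant of them, miR-1a-3p, with a series difference of 1.17. Of the 3, 1 was higher and 1 lower in code series 2 (limma, adjusted p under 0.05), and their median series difference was -0.18. Of the 22 marker miRNAs tested, 1 (4.55%, against 2.85% of all 386) had an unadjusted p under 0.05 between NEC and Control without a covariate, the lymphocyte miRNA miR-150-5p, whose log2 value averaged 6.54 ± 0.33 in NEC and 7.55 ± 0.59 in Control (SD, n = 3 each, limma, unadjusted p = 0.0250 and adjusted p = 0.998). Within the series its difference was -1.05 and -0.90 in series 1 and series 2. With the code series in the limma fit 5 of the 22 (22.7%, against 18.1% of all 386) had an unadjusted p under 0.05, with miR-150-5p, miR-429-3p and miR-145a-5p lower and miR-486a-5p and miR-122-5p higher in NEC, and 0 an adjusted p under 0.05. The difference of miR-122-5p was 0.23 within series 1 and 1.85 within series 2, where each group has 1 library. The part of the cells behind these lists in the values of the family was not tested. In bulk tissue fewer cells of a type and less RNA per cell cannot be told apart.

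The arms of a hairpin can be compared within a library, where a shift of all log2 values between libraries cancels. A difference in depth is such a shift only if the log2 values are plain logarithms, which is not given. The same limit holds for the guide arms compared with each other below. The hairpins are shown with both mature arms in capitals, the 5p arm first.
miR-148a: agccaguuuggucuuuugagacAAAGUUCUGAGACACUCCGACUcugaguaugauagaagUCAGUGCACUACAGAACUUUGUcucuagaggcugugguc
miR-148b: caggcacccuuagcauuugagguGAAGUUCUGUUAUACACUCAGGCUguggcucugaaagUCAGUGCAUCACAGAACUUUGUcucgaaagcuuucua
miR-152: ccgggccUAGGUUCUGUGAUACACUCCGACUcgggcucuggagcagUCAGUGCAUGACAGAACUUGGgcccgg
The 3p arm of miR-148a exceeded its 5p arm by 10.22, 9.44 and 9.17 log2 units in NEC replicates 1, 2 and 3, against 8.92, 8.80 and 9.71 in Control replicates 1, 2 and 3. In both series every NEC value lay above every Control value, as in 17.4% of the 92 hairpins with both arms tested, and 31.5% of the 92 were apart in both series in one direction or the other. Over all libraries the groups of miR-148a overlapped. The mean was 9.61 ± 0.55 in NEC and 9.14 ± 0.49 in Control (SD, n = 3 each), a difference of 0.47 (exact two-sided permutation test, p = 0.4, with 0.1 the smallest possible). It was 0.44 within series 1 and 0.51 within series 2.

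In limma over the 92 hairpins with both arms tested, the arm difference of miR-148a had a 95% interval of -0.49 to 1.42 without a covariate (adjusted p = 0.998, with 0 of the 92, or 0%, past 0.05) and 0.044 to 0.89 with the code series (unadjusted p = 0.0328, adjusted p = 0.216). With the code series 15.2% of the 92 hairpins had an unadjusted p under 0.05, and 1 (1.09%), miR-27a, an adjusted p under 0.05. Between the code series the arm difference of miR-148a was larger by 0.89 in series 2 (standard error 0.21, adjusted p = 0.0024 from limma), and 53.3% of the 92 hairpins passed that comparison in one direction or the other.

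The other hairpins showed no such separation. For miR-148b the 3p arm exceeded the 5p arm by 4.63 ± 0.095 log2 units in NEC and 4.55 ± 0.31 in Control (SD, n = 3 each), a difference of 0.084 (exact two-sided permutation test, p = 0.8). For miR-152 it exceeded it by 2.99 ± 0.20 in NEC and 2.95 ± 0.17 in Control, a difference of 0.037 (exact two-sided permutation test, p = 0.7). Neither held one sign in both series, whereas 63% of the 92 hairpins did, with 0.19 and -0.12 for miR-148b and -0.12 and 0.35 for miR-152 in series 1 and series 2. The 95% intervals from limma with the code series were -0.35 to 0.52 for miR-148b and -0.41 to 0.48 for miR-152.

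**Figure D5:**
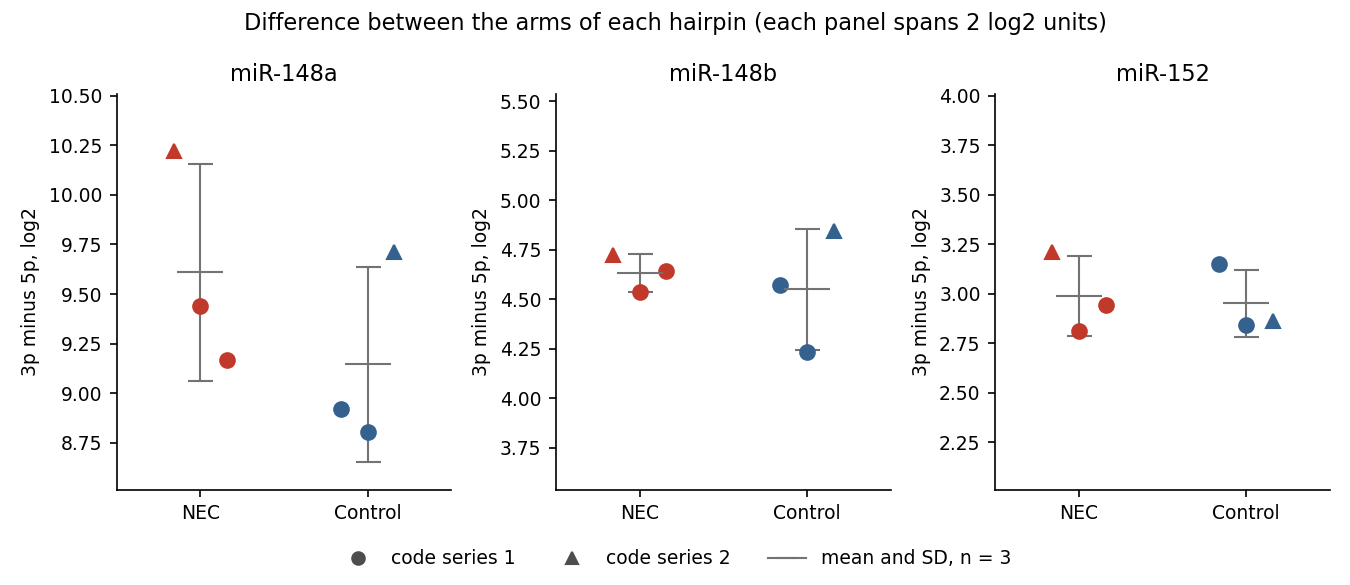
Log2 difference between the 3p and the 5p arm (y axis) of each hairpin in the NEC and Control libraries, one point per library, with circles for code series 1 and triangles for code series 2; bars give the mean and SD of 3 libraries. For miR-148a the NEC circles (9.44 and 9.17) lie above the Control circles (8.92 and 8.80) and the NEC triangle (10.22) above the Control triangle (9.71).

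The guide arms were also compared with each other within a library. The log2 difference of miR-152-3p minus miR-148a-3p averaged -7.12 ± 0.45 in NEC and -6.69 ± 0.71 in Control (SD, n = 3 each), a difference of -0.43 (exact two-sided permutation test, p = 0.4). It was -0.61 within series 1 and -0.066 within series 2. For miR-148b-3p minus miR-148a-3p the means were -7.58 ± 0.54 in NEC and -7.20 ± 0.21 in Control, a difference of -0.39 (exact two-sided permutation test, p = 0.4), with -0.25 within series 1 and -0.67 within series 2. Between miR-152-3p and miR-148b-3p the difference was -0.042 (exact two-sided permutation test, p = 1.0), with -0.37 and 0.61 in series 1 and series 2. With the share and the arm differences, 7 values are given with an exact permutation test, while the level of the pool, a sum over members, is given without one. The Benjamini-Hochberg adjusted p over the 7 was 0.875 to 1.

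Over the 6 libraries the members varied together. Once the code series was taken out they did so less, and the pairs with miR-148a-3p turned negative. Pearson's r over the 6 libraries was 0.84 for miR-148a-3p with miR-148b-3p, 0.83 for miR-148a-3p with miR-148a-5p and 0.93 for miR-148b-3p with miR-148b-5p. After the mean of each series was taken out, r was -0.088, -0.50 and 0.69 for the same pairs. It was then -0.71 for miR-148a-3p with miR-148b-5p and -0.44 for miR-148a-3p with miR-152-3p. Pairs among the members other than miR-148a-3p ran from -0.057 to 0.73. These are descriptions over points that share a library and its series.

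Among the other 385 miRNAs tested, those most like miR-148a-3p over the 6 libraries were miR-3074-2-3p and miR-24-2-5p (Pearson's r 0.99 each), whose hairpins overlap on opposite strands, and miR-3071-3p (0.98). For miR-148b-3p they were the enterocyte miRNA miR-215-5p (0.98), the endothelial miR-126a-3p (0.98) and miR-3074-5p (0.97), and for miR-152-3p they were miR-29a-3p (0.96), miR-369-3p (0.94) and miR-186-5p (0.94). With miR-148a-3p 44 of the 385 had an r above 0.9, with miR-148b-3p 30 and with miR-152-3p 13. These r values include the difference between the code series. After the mean of each series was taken out, r was 0.94, 0.94 and 0.81 for the miRNAs named with miR-148a-3p. For those named with the other guide arms it was 0.85 to 0.93. These miRNAs were picked for their r over the same libraries, so a high r within the series is no separate support. The r within the series was not computed for the rest of the 385.

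Some related miRNAs were set beside the family. The miR-130 and miR-301 miRNAs carry AGUGCA, bases 3 to 8 of the 3p arms here, at bases 2 to 7, which is shown in capitals for both.
miR-148a-3p: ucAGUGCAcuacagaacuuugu
miR-130a-3p: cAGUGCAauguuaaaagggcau
Of 6 listed members of that family 4 had values and 2 were tested, with log2 differences of -0.38 (standard error 0.30) for miR-130a-3p and 0.018 (standard error 0.25) for miR-130b-3p (-0.55 and -0.10 in series 1, -0.060 and 0.26 in series 2), neither past an unadjusted p of 0.05 in limma without a covariate. With the code series in the fit the unadjusted p of miR-130a-3p was 0.0398 (adjusted p = 0.255), and 18.1% of all 386 had one under 0.05 there. Among miRNAs known to repress DNA methyltransferases of the other class, the miR-29 family, 1 of 3 was tested, miR-29a-3p, at 7.46 ± 0.42 in NEC and 7.49 ± 0.18 in Control (SD, n = 3 each) with a log2 difference of -0.025 (standard error 0.29), -0.14 in series 1 and 0.21 in series 2. Of 11 other miRNAs known to be abundant in milk, all were tested and 0 passed an adjusted or an unadjusted p under 0.05 in limma without a covariate. Of these 11, 1 had a positive and 10 a negative log2 difference, against 51.8% positive and 48.2% negative over all 386. The 11 had a median of -0.17 and a range of -0.52 to 0.11, against a median of 0.0099 over all 386. Their median was -0.13 in series 1 and -0.055 in series 2, against -0.0024 and -0.020 over all 386. The largest in size was miR-378a-3p (-0.52, standard error 0.32), followed by miR-30b-5p (-0.44, standard error 0.37), while the most abundant of them, miR-30d-5p, had -0.051 (standard error 0.25). With the code series in the fit 1 of the 11, miR-378a-3p, had an unadjusted p under 0.05, against the same 18.1% of all miRNAs tested.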

How the data were processed

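Small RNA of the intestine was read in 3 NEC and 3 Control libraries as 50 nt single-end reads. The authors deposited a table of normalized log2 values, 1 column per library. The columns were matched to the libraries by the codes in the labels, and 0 value columns stayed unmatched. The submitters' processing notes name the build mm10. The aligner, the counter, the miRNA annotation and the log2 transformation are not given in the sources used. The start at day 5 comes from the study's methods.

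The log2 values were compared as deposited with limma (version 3.58.1, R version 4.3.3), two-sided. Those with a minimum of 3.32 (back-transformed, 10) in at least 3 libraries entered, and p-values were adjusted over these 386 by Benjamini-Hochberg. Single values per library were compared with exact permutation tests (SciPy version 1.17.1). The fit was run on simulated data with built-in differences larger than those of the members, as a check of the code. That check does not show whether differences of the size seen in the members could be found. The members, the lists and the tests were chosen with earlier results of these data known, and the limma fit over 92 hairpins was added after the values had been seen. The text names the members, miR-152-5p, for each 3p member the 3 miRNAs with the highest Pearson correlation, and listed miRNAs by their mean. Beyond that rule, miR-27a, miR-150-5p, miR-429-3p, miR-145a-5p, miR-486a-5p, miR-122-5p, miR-378a-3p and miR-30b-5p were named after their values had been seen, as were miR-30a-3p and miR-5099. Sequences are those of RefSeq on GRCm38.p6, and gene positions those of GENCODE M21 on GRCm38, the same assembly as mm10. Alternatives covered filters, shifts between libraries, added constants, a robust fit, leaving out each library, a block on replicate numbers, and the code series.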

Additional observations from a re-analysis of the deposited data

How the results depend on the processing

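The depth of the libraries is unknown, and 3 libraries a group with a large difference between the code series limit what can be detected. The count of called miRNAs was 0 under every alternative except code series 1 alone, where it was 2 (miR-30a-3p and miR-5099, neither a member). The smallest adjusted p of the comparison in limma ranged from 0.0115, in code series 1 alone, up to 0.999. It was 0.109 with the code series in the limma fit and 0.130 without NEC replicate 1. The filter, the shifts between libraries, the added constants and the robust fit changed no direction of a member. Code series 1 alone gave 0.13 for miR-148b-3p and -0.12 for the arm difference of miR-152, both of the opposite sign to the value over all libraries, and the mean of the differences within the code series gave 0.12 for miR-152-3p minus miR-148b-3p. Leaving out each library in turn, the log2 difference ranged from -0.088 to 0.80 for miR-148a-3p, -0.25 to 0.055 for miR-148a-5p, -0.27 to 0.30 for miR-148b-3p, -0.27 to 0.066 for miR-148b-5p and -0.29 to 0.070 for miR-152-3p, and the median of the members from -0.25 to 0.070. It ranged from -0.092 to 0.79 for the pool of the shared seed, from -0.075 to 6.14 percentage points for the share of miR-148a-3p, from -0.074 to 0.23 and -0.074 to 0.14 for the arm differences of miR-148b and miR-152, and from -0.33 to 0.12 for miR-152-3p minus miR-148b-3p. The arm difference of miR-148a (0.16 to 0.75), miR-148b-3p minus miR-148a-3p (-0.67 to -0.13) and miR-152-3p minus miR-148a-3p (-0.84 to -0.20) kept their sign in each. Leaving out a library also changes the balance of the code series. Without NEC replicate 1 or Control replicate 3, code series 2 holds 1 condition only. These ranges hold no term for the series, so a sign change there cannot be told from that imbalance, and its part was not tested. The deviations of NEC and Control libraries with the same replicate number had correlations of -0.69, 0.73 and -0.78 across the miRNAs tested. Numbers 1 and 3 join libraries of unlike code series. Whatever their numbers, NEC and Control libraries of the same series had 0.57 to 0.87, and those of unlike series -0.78 to -0.69. Whether the replicate numbers pair the libraries therefore cannot be decided from these correlations. With the replicate number as a block, limma called 0 miRNAs (3 at an unadjusted p under 0.05), and miR-148a-3p kept its log2 difference of 0.34 with a standard error of 0.55.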
